A study of Homo sapiens with 4 samples.

Results

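Cytosolic ribosomal protein genes were taken as the protein-coding genes whose symbol is RPL or RPS followed by a number, with or without a final A, X or L (and, in some paralogs, a further number), together with RPLP0, RPLP1, RPLP2 and RPSA. The rule used names only and no measured value. It gave 86 of the 48162 genes listed, 53 of the large (60S) and 33 of the small (40S) ribosomal subunit. They carry 85 symbols, because RPL26 was listed under 2 gene identifiers.

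Each ribosome holds a single copy of almost every one of these proteins, so cells make them in matched amounts. Their mRNAs are short and among the most abundant of a growing cell, and most begin with a cytosine followed by a run of pyrimidines, the terminal oligopyrimidine (TOP) motif, through which mTORC1 and the binding protein LARP1 adjust their translation and stability. A few members have paralogs, written with an added L, that can take their place in the ribosome or have roles outside it.

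The cells were MDA-MB-231, an established human triple-negative breast cancer line. Vehicle control cells (2 libraries) were compared with cells given MGH-CP1 (2 libraries), a small molecule that blocks the palmitoylation of TEAD transcription factors, for 24 h. The sample labels give the dose as 10 µM and the methods of the study as 10 mM. Poly-T selected mRNA was sequenced, and the values are FPKM, fragments scaled by the gene's length and by the library's total on genes. The labels do not say whether libraries of a group came from separate cultures, so p-values measure only the spread between these libraries.

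The fragments recovered from the FPKM summed to 25455533 and 25508824 for vehicle control and to 17997221 and 17577930 for MGH-CP1. Markers fixed for this line were present in every library (VIM at 259 to 281 FPKM, CD44 at 198 to 221), while ESR1, PGR, PTPRC and CD68 stayed at or below 0.0321 FPKM. Of the other markers expected near 0, CDH1 was at 0.289 to 0.638, COL1A1 at 1.31 to 1.83 and EPCAM at 12.4 to 16.4 FPKM. FPKM are relative to the library. A change in a gene's absolute amount therefore cannot be told apart from a change in the rest of the library.

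The start sites of 67 of the 85 symbols were found in the RefSeq promoter table (GRCh38.p14). A start with a C at the first transcribed base followed by at least 4 bases that are C or T was found for 47 of these 67 genes (70.1%), for 6 of 74 mitochondrial ribosomal protein genes (8.11%) and for 5.14% of the 27305 genes of the table. The members below are shown because the differences described later turn on them. Each line gives 10 bases before and 20 bases from the annotated start, on the strand of the gene, with the C-led pyrimidine run at the start, where there is one, in capitals. The first lines are paralogs with their parent genes, except that RPL7L1 has no line for its parent RPL7. Then come examples of members higher and lastly of members lower after MGH-CP1.
RPL22L1 (chr3:170870176-170870205, minus strand): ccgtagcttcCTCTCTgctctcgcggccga
RPL22 (chr1:6199576-6199605, minus strand): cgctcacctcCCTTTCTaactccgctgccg
RPL26L1, first start (chr5:172958719-172958748, plus strand): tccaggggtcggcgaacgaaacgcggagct
RPL26L1, second start (chr5:172958870-172958899, plus strand): ggcggcggccacaaacccgcaggcacgccg
RPL26 (chr17:8383174-8383203, minus strand): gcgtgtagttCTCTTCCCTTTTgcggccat
RPL7L1 (chr6:42879606-42879635, plus strand): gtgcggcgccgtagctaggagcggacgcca
RPS27L (chr15:63157458-63157487, minus strand): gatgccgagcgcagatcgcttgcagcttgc
RPS27 (chr1:153990752-153990781, plus strand): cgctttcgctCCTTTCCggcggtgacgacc
RPLP1 (chr15:69452808-69452837, plus strand): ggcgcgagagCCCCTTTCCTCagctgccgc
RPLP2 (chr11:809957-809986, plus strand): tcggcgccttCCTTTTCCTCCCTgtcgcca
RPS21 (chr20:62387093-62387122, plus strand): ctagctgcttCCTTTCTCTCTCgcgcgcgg
RPL39 (chrX:119791611-119791640, minus strand): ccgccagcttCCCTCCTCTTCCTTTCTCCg
RPS6 (chr9:19380217-19380246, minus strand): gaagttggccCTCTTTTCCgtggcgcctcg
RPSA (chr3:39406710-39406739, plus strand): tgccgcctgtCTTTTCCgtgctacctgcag
RPL4 (chr15:66504836-66504865, minus strand): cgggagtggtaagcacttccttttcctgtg
In RPL4 a pyrimidine run lies just downstream of the annotated start, which is not itself a C, so the count depends on the exact base annotated.

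Ribosomal protein mRNAs were among the most abundant of these cells. Of the 86 members, 80 averaged 1 FPKM or more across libraries and were tested (49 of the large and 31 of the small subunit). Their median mean level was 217 FPKM, against 10.3 FPKM over all 12080 genes tested, and 60 members were above 100 FPKM. FPKM use the listed gene length, so the order of the members by level depends on it. For RPLP0 that length is 2591 bases, against 1218 bases for its GENCODE transcript. The highest by FPKM was RPL7A, at 1059 and 1147 FPKM under vehicle and 1047 and 1057 FPKM under MGH-CP1. RPS18, RPL8, RPL29 and RPLP0 followed. None of these 5 passed the test, but with quantile normalization all 5 did, with log2 fold changes of -0.53 (RPL7A) to -0.33 (RPL29).

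Of the 6 members not tested, 3 were listed at 0 in every library, RPL10L among them. The others were RPL3L (0 to 0.0900 FPKM), RPL36A (0.403 to 1.02 FPKM) and the second RPL26 identifier, which the table describes as another gene (0 to 0.0509 FPKM). RPL10L and RPL3L are known from testis and striated muscle. A value of 0 FPKM is a listed value and does not show that the mRNA was absent. The 5 lowest members tested were RPL22L1, RPL26, RPS10, RPS15A and RPL17.

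Low levels went with overlapping annotation. For 7 members a protein-coding gene on the same strand covered at least 20% of the gene: RPS10, RPL36, RPS15A, RPL36A, RPL17 and both RPL26 entries. Their median mean level was 1.56 FPKM, and 6 of the 7 were under 5 FPKM. Among the other 79 members the median was 215 FPKM and 4 were under 5 FPKM. The part of the overlap in these levels was not tested. The values of these 7 genes, and of members with near-identical pseudogene copies, are therefore uncertain.

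**Figure D1:**
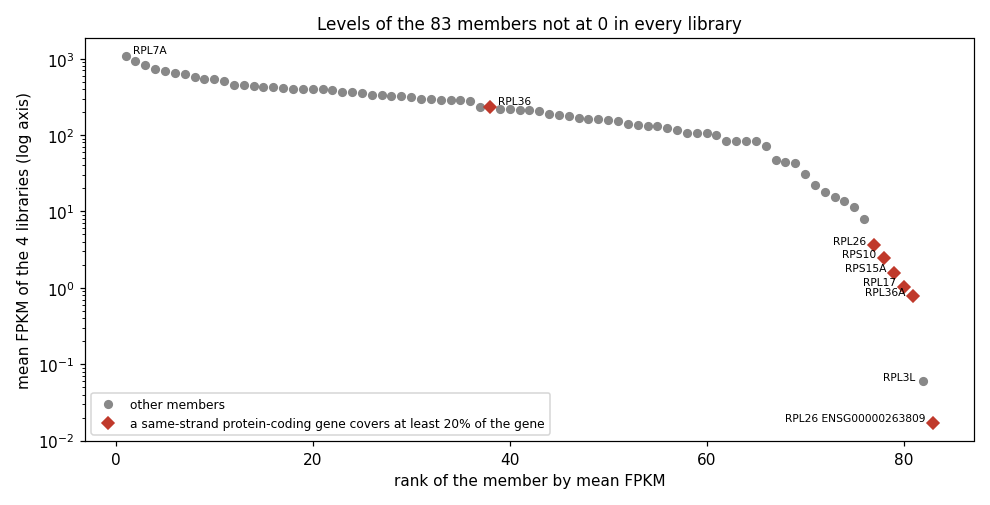
Mean FPKM over the 4 libraries (vertical axis, log scale) of the 83 members that were not at 0 in every library, ranked from highest to lowest. Red diamonds are members covered to at least 20% by a same-strand protein-coding gene, and 6 of these 7 lie under 5 FPKM while RPL36 lies at 230 FPKM.

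After MGH-CP1 the ribosomal protein genes moved little and in both directions. With limma on log2(FPKM + 1) and an adjusted p under 0.05, 14 of 80 members (17.5%) were higher and 19 (23.75%) were lower, against 27.1% higher and 23.8% lower over all genes tested, and 47 did not pass. In either direction this is 41.25% of the members against 50.8% of all genes. Both MGH-CP1 libraries lay beyond both vehicle control libraries for 52 members (65.0%), 22 higher and 30 lower, against 77.2% of all genes. Their median change was 0.014 ± 0.058 on the log2 scale, where the SD is that of the 4 treated and control pairs, which share libraries. Over all genes it was also 0.014.

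The changes were also smaller than in the whole table. The middle 50% of members lay between -0.14 and 0.12 on the log2 scale, against -0.19 to 0.25 for all genes. Of the 80 members 31 lay within 0.1 of no change, against 2962 of all 12080 genes. Only RPL22L1 and RPS10 moved by at least 0.5, as did 2027 of the 12080 genes. In the large subunit 7 of 49 members (14.3%) were higher and 12 (24.5%) lower (median -0.007 ± 0.066). In the small subunit 7 of 31 (22.6%) were higher and 7 (22.6%) lower (median 0.04 ± 0.05). Over all genes 27.1% were higher and 23.8% lower.

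The split between higher and lower members depended on the scaling and on single libraries. With quantile normalization 12 members were higher and 31 lower (24.2% and 26.7% of all genes), and the medians were -0.061 over all members, -0.097 in the large and -0.052 in the small subunit. Without vehicle control 1, 4 members were higher and 18 lower (22.3% and 18.7% of all genes), and without vehicle control 2, 29 were higher and 13 lower (24.8% and 21.1% of all genes). Without MGH-CP1 1, 3 were higher and 11 lower (20.8% and 17.6% of all genes). Without MGH-CP1 2 limma called none higher (7 at an unadjusted p under 0.05) and 9 lower, against 22.7% and 19.5% of all genes.

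**Figure D2:**
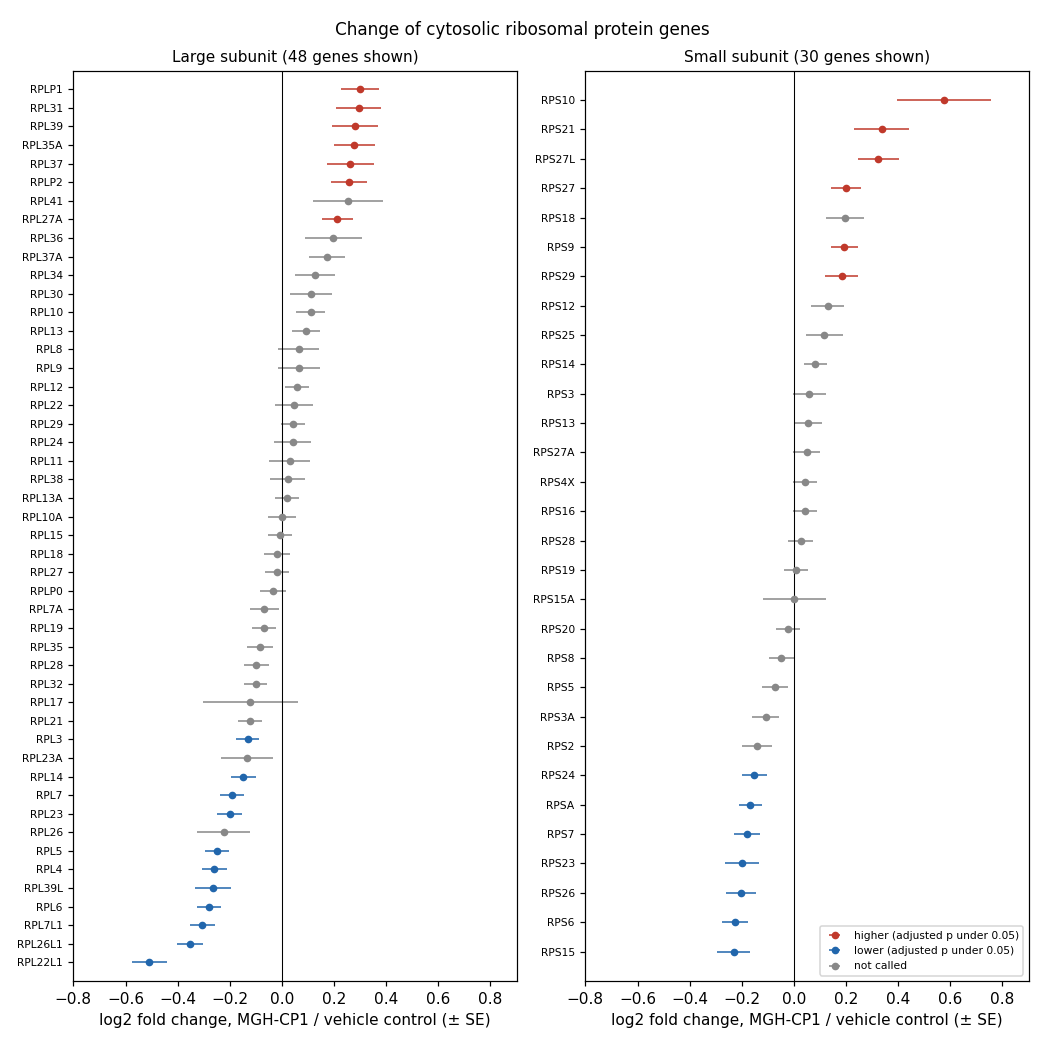
Log2 fold change of 78 of the 80 members tested, MGH-CP1 over vehicle control on the log2(FPKM + 1) scale, with the limma standard error as the bar, for the large subunit (left) and the small subunit (right). Red points are 13 members higher, blue points 18 lower and grey points the 47 not called, and apart from RPS10 (0.58) and RPL22L1 (-0.51) every point lies within 0.5 of no change.

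The largest falls were in paralogs of the large subunit. RPL22L1, the paralog of the RNA-binding protein RPL22, stood at 9.60 and 9.36 FPKM in the controls and at 6.42 and 6.31 FPKM in the treated cells. Its 4 values separated without overlap, with a log2 fold change of -0.51 ± 0.07 (SE) and a limma adjusted p of 5.67e-04, the smallest of all members. RPL26L1 stood at 46.9 and 48.9 FPKM in the controls and at 37.2 and 37.3 FPKM after MGH-CP1 (log2 fold change -0.35 ± 0.05, limma adjusted p = 7.37e-04). RPL7L1, related to RPL7, was far more abundant, at 231 and 222 FPKM in the controls and 180 and 186 FPKM after MGH-CP1 (log2 fold change -0.31 ± 0.05, limma adjusted p = 0.00117). These 3 genes stayed lower and past the threshold when any 1 library was left out.

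RPL39L, known from testis and cancer cells, also fell. It was at 18.6 and 20.8 FPKM in the controls and at 16.7 and 15.7 FPKM after MGH-CP1 (log2 fold change -0.27 ± 0.07, limma adjusted p = 0.0141), and passed in 2 of the 4 fits that left out a library. RPS27L, a p53-induced paralog of the small subunit, went the other way. It rose from 9.25 and 10.6 FPKM to 12.3 and 13.0 FPKM (log2 fold change 0.32 ± 0.08, limma adjusted p = 0.00922), and passed in 3 of those 4 fits.

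The parent genes were given beside their paralogs, and the difference between a paralog and its parent was not tested. RPL22 was at 89.4 and 105 FPKM in the controls and at 100 FPKM in both MGH-CP1 libraries (log2 fold change 0.05 ± 0.07). RPL39, which lines the exit tunnel for new proteins, rose by 0.28 ± 0.09, while RPL39L fell. The rise of RPL39 ran from 0.13 to 0.43 when 1 library was left out. RPL7 fell by 0.19 ± 0.05 (313 and 313 FPKM, then 280 and 268 FPKM), less than RPL7L1. RPL26 had only 53 to 102 fragments in a library and a log2 fold change of -0.22 ± 0.10 that did not pass. RPS27 rose by 0.20 ± 0.06, next to 0.32 for RPS27L. With a library left out the rise of RPS27 ran from 0.12 to 0.27, and with quantile normalization it was 0.07 and did not pass. RPL36AL, a paralog of RPL36A that the name rule misses, was at 174 and 206 FPKM and then at 208 and 188 FPKM, with overlapping groups.

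**Figure D3:**
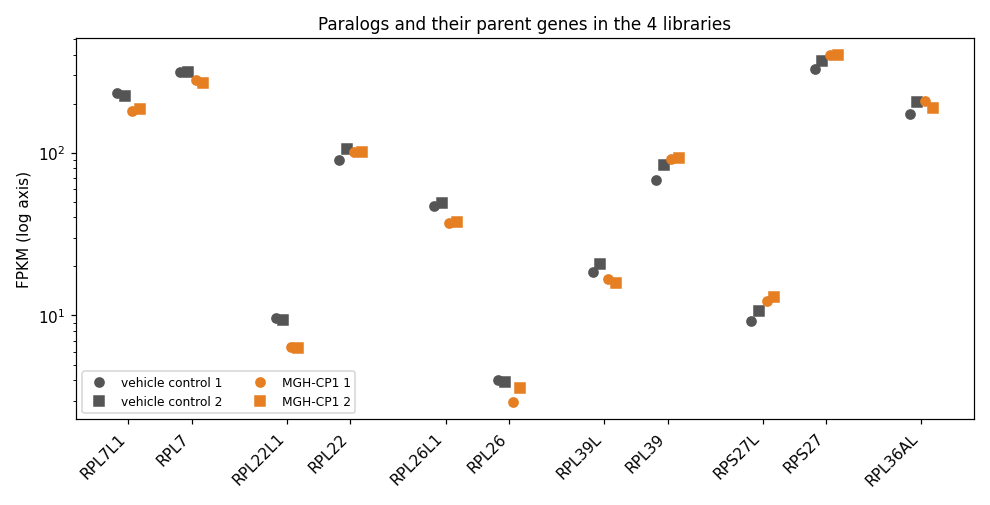
FPKM (vertical axis, log scale) of paralogs and their parent genes in each of the 4 libraries, vehicle control in grey and MGH-CP1 in orange, with circles for replicate 1 and squares for replicate 2. The orange points lie below the grey ones for RPL7L1, RPL22L1, RPL26L1 and RPL39L and above them for RPS27L, and for RPL22 the MGH-CP1 libraries lie between the controls.

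Members with the next largest falls encode core proteins of both subunits. RPL6 was at 454 and 473 FPKM in the controls and at 379 and 385 FPKM after MGH-CP1 (log2 fold change -0.28 ± 0.05, limma adjusted p = 0.00174). RPL4, which lines part of the exit tunnel, went from 315 and 296 FPKM to 253 and 257 FPKM (log2 fold change -0.26 ± 0.05, limma adjusted p = 0.00308). In the small subunit RPS15, RPS6 and RPS26 fell by 0.23, 0.23 and 0.20 on the log2 scale. RPS15 held its call in 1 of the 4 fits without a library, RPS26 in 2 and RPS6 in 3, while RPL6 and RPL4 held it in 4. RPL5 is described with its partner RPL11. The other 9 members lower, among them RPL23, RPS23, RPL7, RPS7, RPSA, RPS24, RPL14 and RPL3, had log2 fold changes from -0.20 to -0.13.

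The members that rose were mostly short, 10 of 14 with at most 400 coding bases, and the controls differed in them. RPS21 was at 127 and 164 FPKM in vehicle control 1 and 2 and at 177 and 188 FPKM after MGH-CP1 (log2 fold change 0.34 ± 0.11, limma adjusted p = 0.0282). RPL31 was at 108 and 132 FPKM, then at 144 and 151 FPKM (0.29 ± 0.09, limma adjusted p = 0.0214). In both the gap from control 1 to control 2 was larger than the gap from control 2 to the mean of the MGH-CP1 libraries. In RPS27L, RPLP2 and RPS9, which were also called higher, the gap between the controls was the smaller one.

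A difference between the controls was also seen over the members as a whole. Vehicle control 2 was above vehicle control 1 in 65 of 80 members (81.25%), against 48.7% of all genes, with a median difference of 0.084 in log2(FPKM + 1). It was above in 14 of the 14 members called higher, where the median difference was 0.23, and in 9 of the 19 called lower. The mean of the MGH-CP1 libraries was above vehicle control 2 in these 14 members, by 0.10 to 0.27. They had been picked as higher than the controls, which favours this direction. Over all 80 members the median of that difference was -0.060. The part of the control libraries in these rises was not tested beyond leaving each out: without vehicle control 1 the 4 members still called included RPLP1, RPLP2 and RPS27L, and without MGH-CP1 1 they were RPLP1, RPLP2 and RPS27L.

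Other members in this group were RPL39, RPL35A and RPL37, which rose by 0.26 to 0.28 on the log2 scale, and RPL27A, RPS27, RPS9 and RPS29, which rose by 0.18 to 0.21. RPS10, whose protein is ubiquitinated on stalled ribosomes, had the largest fold, at 1.21 and 2.36 FPKM in the controls and 2.99 and 3.13 FPKM after MGH-CP1 (log2 fold change 0.58 ± 0.18, limma adjusted p = 0.0288). It had only 24 to 47 fragments in a library, a same-strand gene with 0 fragments covers 99.1% of it, and it passed in 1 of the 4 fits without a library.

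Some mRNAs of proteins that work together passed the test and others did not, and no difference between partners was tested. In the stalk, which recruits translation factors to the large subunit, RPLP1 rose from 183 and 210 FPKM to 231 and 252 FPKM (log2 fold change 0.30 ± 0.07, limma adjusted p = 0.0102). RPLP2 rose from 343 and 385 FPKM to 417 and 453 FPKM (0.26 ± 0.07, limma adjusted p = 0.0144). Their partner RPLP0 was at 683 and 716 FPKM, then at 671 and 696 FPKM, with overlapping groups and a log2 fold change of -0.03 ± 0.05. RPL5 and RPL11 bind 5S rRNA and, outside the ribosome, the p53 regulator MDM2. RPL5 fell from 593 and 573 FPKM to 493 and 487 FPKM (-0.25 ± 0.05, limma adjusted p = 0.00287), while RPL11 was at 358 and 426 FPKM, then at 407 and 390 FPKM (0.03 ± 0.08). For RPL11 the log2 fold change was -0.09 without vehicle control 1 and 0.16 without vehicle control 2, where it passed (limma adjusted p = 0.0357).

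Among small subunit proteins with known roles, RPS6, the S6 kinase substrate, fell from 458 and 448 FPKM to 398 and 376 FPKM (log2 fold change -0.23 ± 0.05, limma adjusted p = 0.00591). RPSA, also known as a laminin receptor, fell from 419 and 416 FPKM to 372 and 371 FPKM (-0.17 ± 0.04, limma adjusted p = 0.0141), and passed in 2 of the 4 fits without a library. RPS19, the gene most often mutated in Diamond-Blackfan anaemia, was at 217 to 225 FPKM in all libraries. RPS3, RPS27A (made as a fusion with ubiquitin) and RPS2 did not pass, with log2 fold changes of 0.06, 0.05 and -0.14.

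Large subunit members with known roles that did not pass were RPL10, which joins the subunit late (0.11 ± 0.06), RPL13A (0.02 ± 0.05), RPL23A at the tunnel exit (-0.14 ± 0.10) and RPL41, the shortest member (0.25 ± 0.13). RPL41 was at 222 FPKM in vehicle control 1 and at 311 FPKM in vehicle control 2, which spans 1 of the MGH-CP1 values, 299 and 328 FPKM. Ribosomal proteins whose names fall outside the rule did not pass either, among them FAU (-0.02), GNB2L1, now called RACK1 (-0.09), and RPL36AL (0.07).

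The direction of the members followed their coding length, a description made after the values were seen. Over the 80 members, coding lengths run from 75 to 1281 bases, and Spearman's rho between coding length and log2 fold change was -0.42. These points come from the same 4 libraries, and genes are not independent replicates. The same measure was -0.11 over 10692 other protein-coding genes. Their coding lengths run from 111 to 22776 bases, and 9389 of them exceed 600 bases, so the 2 values cover unlike ranges. Of 27 members of up to 400 coding bases, 10 (37.0%) were higher and 4 (14.8%) lower, with a median of 0.13. Of 30 members above that and up to 600 bases, 4 (13.3%) were higher and 6 (20%) lower, with a median of -0.004. Of 23 longer members none was higher and 9 (39.1%) were lower, with a median of -0.07. Among other protein-coding genes in the same length classes 36.6%, 29.4% and 26.4% were higher and 15.6%, 19.95% and 26.1% lower, with medians of 0.12, 0.04 and -0.006.

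The difference between the controls moved with coding length as well. Vehicle control 2 minus vehicle control 1 had a rho of -0.42 with coding length over the members. The rho was -0.12 over the other genes, which cover a wider range of lengths. The median of this difference was 0.18 in members of up to 400 bases, 0.07 in those of up to 600 and 0.06 in longer ones. Against vehicle control 2 alone, the mean of the MGH-CP1 libraries differed by a median of 0.008, -0.07 and -0.13 in the 3 classes. That difference and the one between the controls share vehicle control 2.

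**Figure D4:**
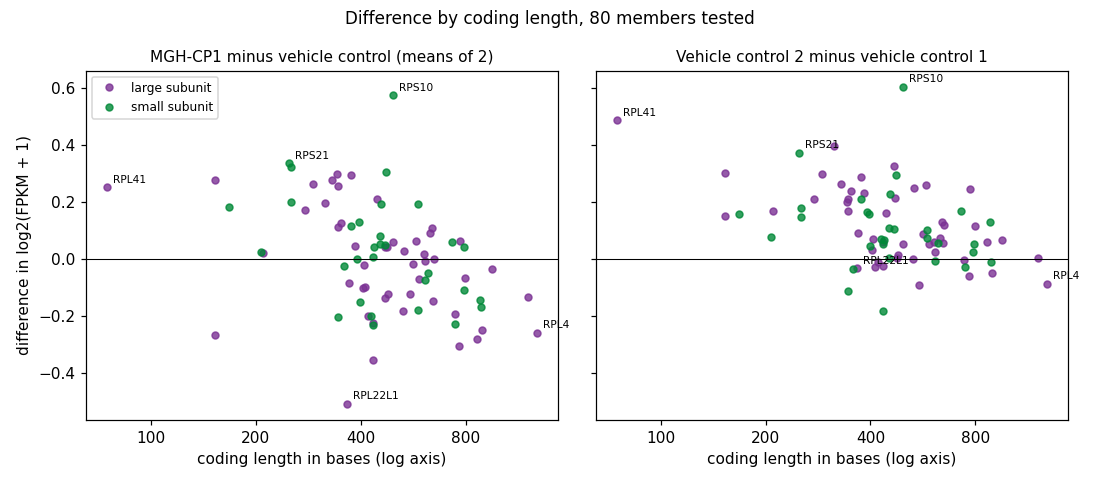
Coding length in bases (horizontal axis, log scale) of the 80 members tested against the difference in log2(FPKM + 1) between MGH-CP1 and vehicle control means (left) and between vehicle control 2 and vehicle control 1 (right), with the large subunit in purple and the small subunit in green. In both panels the short members lie higher than the long ones (rho = -0.42 in each).

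Members with and without the C-led pyrimidine start were both found on either side of no change. Among the 46 tested members with such a start, 10 were higher, 6 lower and 30 not called, with a median log2 fold change of 0.05. Of 19 without it, 2 were higher, 8 lower and 9 not called, with a median of -0.10. As in RPL4, several of these 19, among them RPL10A, RPL9 and RPS26, have a pyrimidine run just downstream of the annotated start. The classes therefore depend on the exact base annotated and do not separate members with a TOP motif from members without one. Over all genes tested 27.1% were higher and 23.8% lower. RPL22L1, RPS6 and RPSA begin with such a run and were lower, while RPL26L1, RPL7L1 and RPL4 lack it at the annotated start and were lower too.

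Members made up 6.42 and 6.79% of the summed FPKM under vehicle and 6.19 and 6.28% under MGH-CP1, so the groups did not overlap. The difference was -0.370 percentage points (p = 0.33 by a two-sided exact permutation test, which with 2 against 2 libraries can go no lower). As a share of fragments, members took 3.39 and 3.59% in the controls and 3.43 and 3.46% after MGH-CP1, with overlapping groups. The summed FPKM of the members was 21499 ± 1038 (SD, n = 2) in the controls and 21409 ± 127 (SD, n = 2) after MGH-CP1, while the sum over all genes was 323348 and 327191 in the controls and 344271 and 342087 after MGH-CP1.

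The medians of several related gene lists lay further from 0 than that of the ribosomal proteins. These lists were chosen with earlier results of these data known and were not tested as sets. For comparison, 27.1% of all genes tested were higher and 23.8% lower. Of 9 chaperones and import factors of ribosomal proteins and early assembly, none was higher and 6 (66.7%) were lower, with a median of -0.39. Both partners that load the 5S particle with RPL5 and RPL11, RPF2 and RRS1, were among them: RPF2 fell from 21.2 and 20.3 FPKM to 12.6 and 13.0 FPKM (log2 fold change -0.65 ± 0.06) and RRS1 by 0.71 ± 0.11. LTV1, an assembly factor of the small subunit, fell by 0.77 ± 0.08, and GRWD1, the chaperone of RPL3, by 0.57 ± 0.06. RPL3 itself fell by 0.13 ± 0.04, a call that held in 0 of the 4 fits without a library.

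Other mRNAs with a TOP start code mostly for translation factors. Of 16 tested, 2 (12.5%) were higher and 7 (43.75%) lower, against 27.1% and 23.8% of all genes, with a median of -0.11. EEF1A1, the most abundant of them, was at 2328 and 2324 FPKM, then at 2432 and 2403 FPKM, and did not pass (0.06 ± 0.05). PABPC1, the poly(A)-binding protein, fell by 0.35 ± 0.05 and NPM1, nucleophosmin, by 0.66 ± 0.05. These examples leave out the 2 genes called higher, whose log2 fold changes reach 0.40. Of 6 TOP host genes of small nucleolar RNAs, 1 was higher (SNHG5) and 1 lower (SNHG1), 16.7% each, with a median of 0.02.

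Of 13 regulators of TOP mRNAs, 2 (15.4%) were higher and 7 (53.8%) lower, against 27.1% and 23.8% of all genes. Their median was -0.22. MTOR itself fell from 15.0 and 14.3 FPKM to 9.51 and 10.5 FPKM (log2 fold change -0.51 ± 0.07), and LARP1 fell by 0.26 ± 0.05. The higher ones were TSC2 and TSC1, both of which restrain mTORC1, while EIF4EBP1 and EIF4EBP2, repressors of translation that mTORC1 switches off, fell by 0.51 ± 0.07 and 0.22 ± 0.07. Of 72 tested mitochondrial ribosomal protein genes, 8 (11.1%) were higher and 23 (31.9%) lower, with a median of -0.08 ± 0.02, and no test compared them with the cytosolic ones.

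**Figure D5:**
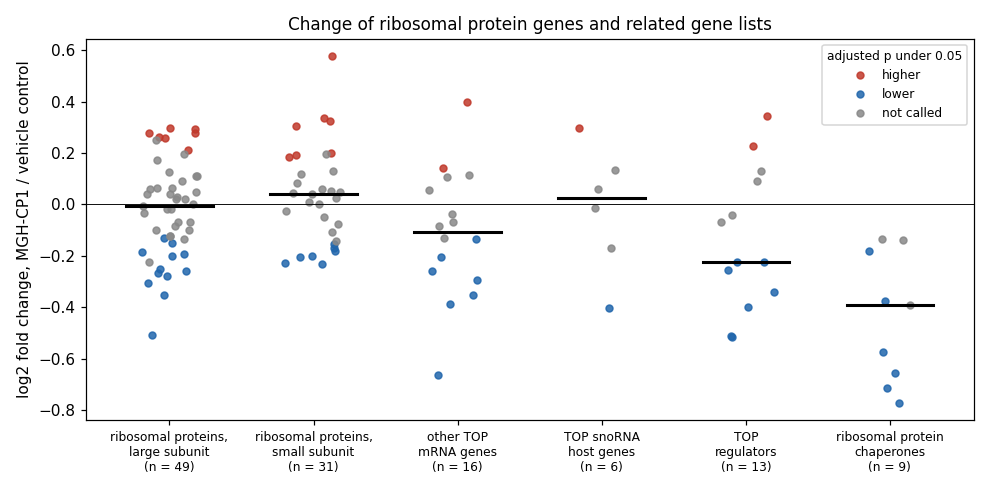
Log2 fold change of each gene tested, MGH-CP1 over vehicle control on the log2(FPKM + 1) scale, in the 2 subunits and in related lists, with a black bar at the median. The medians lie at -0.007 and 0.04 for the large and small subunit, at -0.11 for other TOP mRNA genes and at 0.02 for TOP snoRNA host genes. They lie at -0.22 for the TOP regulators and at -0.39 for the ribosomal protein chaperones, where all 9 points are below 0. The related lists were chosen with earlier results of these data known.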

How the data were processed

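The authors deposited FPKM for 48162 genes with symbol, gene type, length and coordinates. The submitters' processing notes name CASAVA 1.8, STAR and the build hg19; the counting tool and its use of strand are not given in the sources used here. The columns named DMSO hold the vehicle control. FPKM multiplied by the listed gene length were whole multiples of a single step for 100% of values (within 0.01 fragments), which gave back the fragments counted; these served for depths, shares and 1 alternative.

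Genes averaging 1 FPKM or more (12080) were compared on log2(FPKM + 1) with limma 3.58.1 in R 4.3.3 (lmFit, eBayes with a trend). The test was two-sided, and Benjamini-Hochberg adjusted p-values under 0.05 were called. Fold changes are on the log2(FPKM + 1) scale, which understates changes of low genes. The test was tried on simulated data first. The changes simulated were larger than those of nearly all members, so that trial does not cover changes as small as theirs.

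Named genes were the 10 largest rises and 10 largest falls among called members without overlap, paralogs with parents, the 5 highest and 5 lowest levels, members with known roles and those the name rule misses; in other lists genes are examples, chosen after their values were seen. Members and lists were chosen with earlier results of these data known. Coding lengths come from GENCODE release 29, and the length classes were set after the data were seen. Start sites come from RefSeq (GRCh38.p14), whose coordinates were not mixed with those of the table. Replicates differed by more than counting noise (chi-square per degree of freedom 4.89 and 3.43). The 15 alternatives are given in the closing section. A few genes are not reported here by name, and they stay in the counts and medians.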

Additional observations from a re-analysis of the deposited data

How the results depend on the processing

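The 14 members higher and 19 lower were set against 15 alternatives. Limma without the trend gave 2 higher (RPLP1 and RPS27L) and 11 lower, against 25.8% and 21.9% of all genes. Without a filter on low values limma gave 0 higher and 5 lower (6 and 21 at an unadjusted p under 0.05), against 9.16% and 7.41% of all genes. A per-gene test without shared variance gave 0 and 0 (0 and 15 unadjusted, smallest adjusted p 0.0527), and called 9 genes higher and 4 lower in the whole table. Quantile normalization gave 31 lower and medians of -0.061 (all members), -0.097 (large subunit) and -0.052 (small subunit), and it turned RPS18, RPL8 and RPL29 to -0.35, -0.36 and -0.33 and moved RPL7A and RPLP0 to -0.53 and -0.36, all past the threshold. RPS18 was called higher, at 0.20 to 0.21, with the replicate block, voom, a total without mitochondrial genes and a mean FPKM of at least 5. RPL3 lost its call in the per-gene test, without the trend, without the filter and with a total without mitochondrial genes. The other scalings, the pseudocount of 0.1, a mean FPKM of at least 5 and limma voom on recovered fragments gave 12 to 20 higher and 18 to 20 lower. Over all genes these settings gave 26.1 to 28.8% higher and 22.2 to 30.4% lower. The cause of these differences was not tested.

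Leaving out 1 library gave 0 to 29 members higher, 9 to 18 lower, and medians of -0.060 to 0.053 (all members), -0.066 to 0.029 (large) and -0.0070 to 0.075 (small). The share of summed FPKM was lower after MGH-CP1 in each of the settings that could change it, with differences of -0.710 to -0.154 percentage points. As a share of fragments the difference was -0.0474, with overlapping groups. It is unaffected by the pseudocount, the variance settings, the block and median-ratio scaling, which therefore give no value for it.

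The replicate numbers are only shared between the groups: deviations of same-numbered libraries had a correlation of 0.0777 over 12080 genes, with 2 pairs. With the replicate block 19 members were higher and 21 lower, against 28.7% and 25.3% of all genes. They include the 14 and 19 called without it.

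Depth and n limit these calls: 2 libraries stand in each group, the MGH-CP1 libraries are shallower, and members such as RPS10, RPL17 and RPL26 rest on few fragments.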

Other observations

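Pseudogenes of ribosomal proteins, of any pseudogene type, took 0.0140 to 0.0175% of fragments in each library. Of the 612 listed, 30 passed the filter on low values. Of these, 5 (16.7%) were higher and 3 (10.0%) lower after MGH-CP1, against 27.1% and 23.8% of all genes, with a median of 0.009. The pseudogene RPL41P1, named after its values were seen, stood at 145 and 193 FPKM in the vehicle control libraries and at 231 and 201 FPKM in the MGH-CP1 libraries (log2 fold change 0.36 ± 0.12, limma adjusted p = 0.0379). It had 1079 to 1506 fragments in a library, against 3757 to 5553 for RPL41. How reads that match both were assigned is not given in the sources used here.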
